A study of Mus musculus with 8 samples.

Results

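The unfolded protein response and the ATF4 pathway were followed through 34 genes, chosen by name as textbook members of the 2 pathways. They were chosen, with earlier results of these data known, out of the 38293 gene identifiers counted in mouse mammary tumor organoids. By role, 13 encode chaperones and other folding factors of the endoplasmic reticulum (ER), 4 act in ER-associated degradation, 7 are regulators and 10 serve amino acid uptake and synthesis or are other targets of ATF4. The organoids are tumor epithelium grown as 3-dimensional cultures from a mouse that carries the PyMT oncogene and a Cre recombinase, each driven by the MMTV promoter, together with a fluorescent fusion of E-cadherin, and both the control and the SOX4KO lines share these alleles. SOX4KO lines were made with CRISPR/Cas9, each line is a separate clone, and every line was harvested on day 4 after dissociated cells had been seeded in medium with B27 and FGF2. Bulk RNA was sequenced from 2 control lines (WT1 and WT3) and 3 SOX4KO lines (H7, M4 and H4), and single cells from 1 control library (GR17) and 2 SOX4KO libraries (GR18 and GR19). Each comparison asks what loss of SOX4, a transcription factor, changes in these tumor cells. The labels do not say which bulk line each single-cell library came from.

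When unfolded proteins build up in the ER, the membrane sensors IRE1, PERK and ATF6 are activated. IRE1 splices the Xbp1 transcript into the form that encodes an active transcription factor, ATF6 is cleaved to release another, and both raise the genes for chaperones and for degradation. PERK phosphorylates eIF2 alpha, as GCN2 does when amino acids run short, which lowers protein synthesis in general but favours translation of ATF4, and ATF4 in turn raises genes for amino acid transport and synthesis together with Ddit3 (CHOP) and Trib3. Secretory mammary epithelium relies on this machinery, and Xbp1 is known for its part in luminal cells of the gland. Gene counts do not separate spliced from unspliced Xbp1 and do not show the amount of ATF4 protein.

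Genes of these pathways share promoter elements, which are given first. RefSeq windows (GRCm38.p6, 250 bases before to 50 bases after the start) matched 31 of the 34 genes, leaving Atf6, Manf and Slc7a5. The ER stress response element ERSE, searched as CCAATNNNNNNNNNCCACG on both strands, was found in 8 of the 31 genes and in 0.119% of all 32851 windows. The 9 elements of these genes, of which Hsp90b1 holds 2, are shown because 7 of the 8 genes encode ER folding factors. Capitals mark the element, read along the coding strand of each gene, so an element that begins with CGTGG lies on the opposite strand.
Calr, chr8:84847075-84847093: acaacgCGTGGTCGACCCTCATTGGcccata
Canx, chr11:50325800-50325818: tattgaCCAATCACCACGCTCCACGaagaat
Creld2, chr15:88819520-88819538: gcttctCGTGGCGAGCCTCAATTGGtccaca
Dnajc3, chr14:118937827-118937845: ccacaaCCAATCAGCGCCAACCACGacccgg
Hsp90b1, chr10:86705533-86705551: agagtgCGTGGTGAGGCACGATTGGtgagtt
Hsp90b1, chr10:86705638-86705656: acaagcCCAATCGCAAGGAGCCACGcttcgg
Hspa5, chr2:34772025-34772043: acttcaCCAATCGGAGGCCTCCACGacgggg
Pdia6, chr12:17266491-17266509: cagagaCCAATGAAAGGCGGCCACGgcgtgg
Syvn1, chr19:6046532-6046550: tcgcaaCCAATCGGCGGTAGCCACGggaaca
The related ERSE-II, searched as ATTGGNCCACG, was found in Dnajb11 and Herpud1 and in 0.0365% of all windows. The ATF4 element CARE, searched as TGATGNAA, was found in 6 of the genes and in 3.97% of all windows. UPRE (TGACGTGG) was found in 0 of the 31 genes and in 0.676% of windows. No 2 of these elements overlapped in the windows shown. The CARE matches follow because 5 of these genes are regulators or amino acid genes described later.
Asns, chr6:7693225-7693232: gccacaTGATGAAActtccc
Atf3, chr1:191183436-191183443: tcgcacTTGCATCAccaagt
Chac1, chr2:119351049-119351056: ctgccgTTGCATCActcctg
Herpud1, chr8:94386317-94386324: ggcgggTTGCATCAgcccgc
Slc7a11, chr3:50443653-50443660: gagaatTTGCATCAtcatgc
Slc7a11, chr3:50443672-50443679: tgtggcTGATGCAAacctgg
Trib3, chr2:152344039-152344046: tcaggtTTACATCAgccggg
Of the SOX core sequences, AACAATG was found in 0 of the 31 genes (3.78% of all windows) and AACAAAG in Pdia4 and Slc7a11 (5.85%). Whole windows are given for Hspa5, the best known target of the response, for Xbp1 and Mthfd2, the members called in bulk, and for Asns, the classical ATF4 target. In Xbp1 and Mthfd2 these letters were absent from the window, which therefore has no capitals.
Hspa5, chr2:34771840-34772139, plus strand: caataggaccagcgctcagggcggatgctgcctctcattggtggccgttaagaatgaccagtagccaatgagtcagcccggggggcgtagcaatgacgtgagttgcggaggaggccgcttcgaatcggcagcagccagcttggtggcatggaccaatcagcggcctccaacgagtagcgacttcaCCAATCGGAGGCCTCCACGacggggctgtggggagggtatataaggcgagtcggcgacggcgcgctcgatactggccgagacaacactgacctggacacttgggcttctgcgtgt
Xbp1, chr11:5520391-5520690, plus strand: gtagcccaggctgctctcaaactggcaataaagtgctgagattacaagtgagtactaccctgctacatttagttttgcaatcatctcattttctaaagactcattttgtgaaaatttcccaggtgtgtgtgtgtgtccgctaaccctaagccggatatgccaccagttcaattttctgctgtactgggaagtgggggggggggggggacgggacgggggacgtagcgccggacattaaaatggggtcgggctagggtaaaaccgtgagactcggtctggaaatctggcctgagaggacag
Mthfd2, chr6:83317555-83317854, minus strand: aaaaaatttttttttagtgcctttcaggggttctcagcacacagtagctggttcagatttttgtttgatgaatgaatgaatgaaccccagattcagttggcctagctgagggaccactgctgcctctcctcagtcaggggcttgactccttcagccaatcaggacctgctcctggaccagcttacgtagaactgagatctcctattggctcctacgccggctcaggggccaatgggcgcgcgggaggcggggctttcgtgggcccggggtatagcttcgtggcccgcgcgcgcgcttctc
Asns, chr6:7693160-7693459, minus strand: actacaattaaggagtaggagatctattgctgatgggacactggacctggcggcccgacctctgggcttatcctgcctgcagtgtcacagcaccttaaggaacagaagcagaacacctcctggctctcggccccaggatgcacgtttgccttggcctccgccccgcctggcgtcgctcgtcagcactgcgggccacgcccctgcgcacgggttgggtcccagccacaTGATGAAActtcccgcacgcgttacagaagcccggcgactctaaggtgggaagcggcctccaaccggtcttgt
A match is a match of letters, and no binding was measured.

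The bulk libraries held 3050323 to 4678497 reads on genes, with 3.97% to 7.66% of them on mitochondrial genes. The single-cell plates gave 369, 369 and 362 cells with at least 1000 unique molecular identifiers (UMIs, which count molecules), with a median of 19845 to 21876.5 UMIs per cell. The 3 plates share all their well numbers, so a cell is identified by plate and well together. Sox4, the targeted gene, was at 295 and 374 CPM (counts scaled to a common library size) in WT1 and WT3 and at 199, 179 and 299 CPM in H7, M4 and H4, and in the plates at 118 CPM in GR17, 82.5 in GR18 and 110.4 in GR19. H4 lay within the control range and the counting interval of GR19 overlapped that of GR17. The lines carry small indels, so the transcript level does not test the loss of the protein. Summed basal markers were 1985 to 2784 CPM in control and 3525 to 8037 CPM in SOX4KO lines. Summed epithelial markers were 3118 to 3285 CPM in control and 2094 to 2823 CPM in SOX4KO lines, and the 9 epithelial markers tested all had a negative log2 fold change, with a median of −0.41. Summed fibroblast markers were 315 and 201 CPM in control and 129.9 to 142 CPM in SOX4KO lines, with Fap, Thy1 and Dpt at 0. Of the 4 fibroblast markers tested, 2 had a positive and 2 a negative log2 fold change, up to 1.41 and with a median of 0.03. Among them Col1a1 was called lower (log2 fold change −1.39, adjusted p = 0.0624, edgeR with Benjamini-Hochberg adjustment). These 3 sums did not overlap between the groups, and their part in the bulk results given here was not tested. Summed luminal markers overlapped, at 2175 to 2387 CPM in control and 1779 to 4092 CPM in SOX4KO lines, of which Csn3 alone made up 2287 CPM in H4. Csn3 was then left out, a choice made after its values were seen. Without it the luminal sums were 2050.3 and 1904 CPM in WT1 and WT3 and 1252, 1613 and 1805 CPM in H7, M4 and H4. These sums no longer overlapped. Of the 12 luminal markers tested, 5 had a positive and 7 a negative log2 fold change, from −1.21 to 1.81 with a median of −0.38. Among them 1 was called higher and 0 lower, beside 4.1% and 2.17% of all genes tested. Immune markers stayed at 15.1 CPM or less, adipocyte markers at 7.42 CPM or less and endothelial markers at 4.68 CPM or less, with Cd3e, Lyz2, Cdh5 and Kdr at 0 in all 5 lines.

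In bulk, Xbp1 was lower and Mthfd2 higher in the SOX4KO lines, and no other member was called. Xbp1 stood at 909.7 and 907.7 CPM in the control lines WT1 and WT3, and at 312, 349.9 and 338 CPM in the SOX4KO lines H7, M4 and H4. The control lines were close to identical, and the 3 SOX4KO lines were all far below them and near each other. The means were 909 ± 1.39 CPM (SD, n = 2) and 333 ± 19.6 CPM (SD, n = 3), a 2.73-fold lower level (log2 fold change −1.45 ± 0.17 standard error, adjusted p = 0.0113, edgeR's quasi-likelihood test with Benjamini-Hochberg adjustment over all 11682 genes tested). Per transcript length Xbp1 had the highest control level of the 34 genes, at 279.8 RPKM, CPM divided by the exon length in kilobases, ahead of Calr at 274 RPKM. Leaving out WT3 kept the difference at −1.45 but took the adjusted p to 0.106. Beside it, the summed epithelial markers were lower and the summed basal markers higher in every SOX4KO line, as given above. The summed luminal markers overlapped and were highest in H4, at 4092 CPM, but did not overlap without Csn3. The part of these marker lists in the Xbp1 difference was not tested. In bulk RNA, fewer cells of a type and less RNA per cell cannot be told apart.

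Mthfd2 encodes a mitochondrial enzyme of one-carbon metabolism and is an ATF4 target. It was at 12.9 and 11.9 CPM in WT1 and WT3 and at 22.4, 23.8 and 20.4 CPM in H7, M4 and H4, so the groups did not overlap and differed 1.78-fold (log2 fold change 0.83 with a standard error of 0.23, edgeR with Benjamini-Hochberg adjusted p = 0.096). This call was close to the threshold of 0.1 and was lost when any single line was left out, with an adjusted p of 0.114 to 0.63.

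Of the 32 members that passed the filter on low counts, 1 was called higher and 1 lower, beside 4.1% and 2.17% of the whole table, or 6.27% in either direction. Atf3 and Slc7a11 did not pass, with 1 to 9 reads in each line. The members tested comprised 23 with a positive and 9 with a negative log2 fold change, with a median of 0.21, beside a median of 0.01 over all genes tested. SOX4KO and control lines did not overlap in 12 members in the higher direction and 4 in the lower direction, beside 19% and 17.9% of all genes tested, or 36.9% in either direction. At an unadjusted p under 0.05, 4 members were higher and 1 lower, beside 10.4% and 7.68% of all genes.

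**Figure D1:**
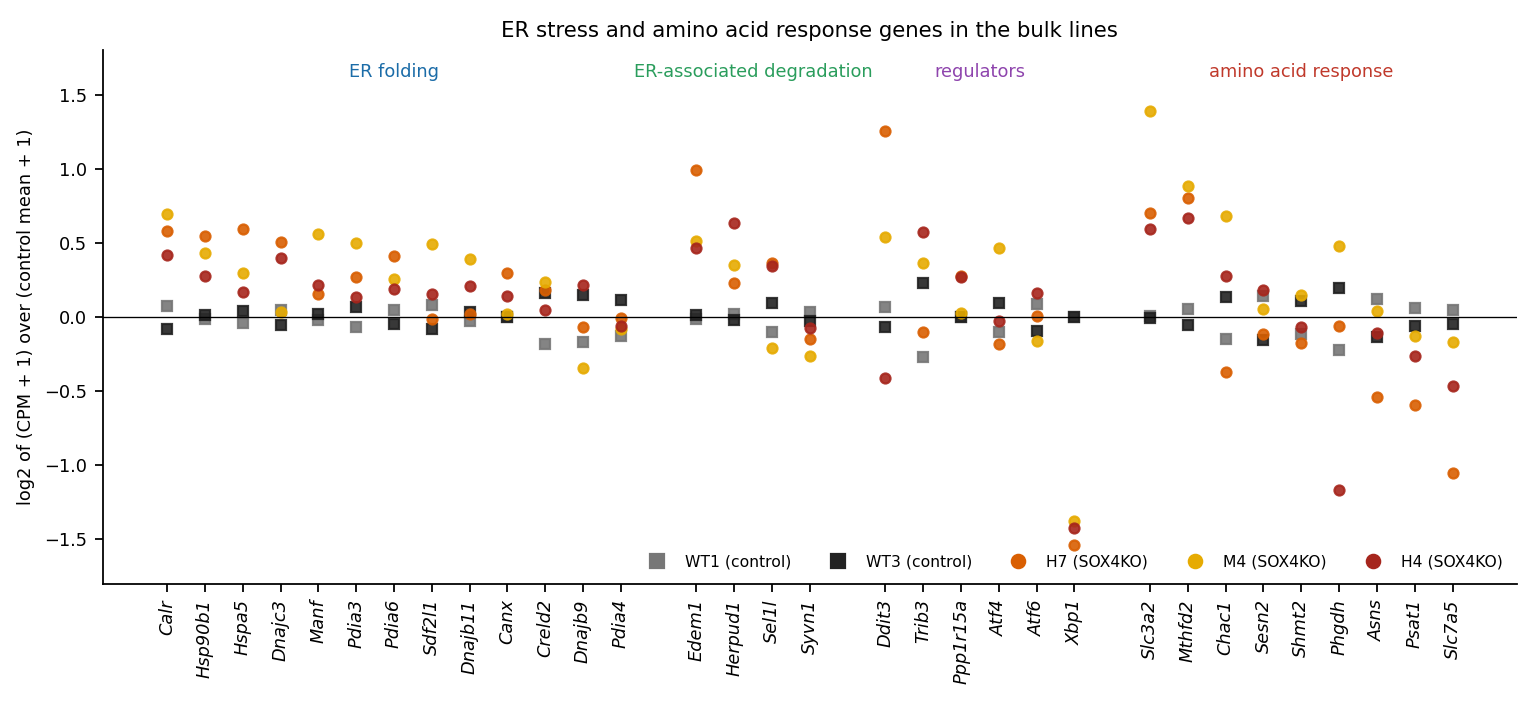
Log2 ratio of CPM plus 1 to the control mean plus 1 for the 32 members tested, one point per bulk line, squares for control and circles for SOX4KO lines, grouped by role and ordered by fold change. The 3 SOX4KO points of Xbp1 lie together far below the control points, and those of Mthfd2 and Slc3a2 lie above them.

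The ER folding members were the role with the most one-sided values, with 0 called by edgeR (1 at an unadjusted p under 0.05, Calr, which DESeq2 also called). Of the 13, 11 had a positive log2 fold change, beside 5941 of all 11682 genes tested, and the median was 0.29. The groups did not overlap in 7 in the higher direction and 0 in the lower, beside 19% and 17.9% of all genes tested. Calr encodes calreticulin, the soluble lectin chaperone of the ER. It was at 833 and 747 CPM in WT1 and WT3 and at 1180.1, 1281 and 1055 CPM in H7, M4 and H4 (log2 fold change 0.57 with a standard error of 0.19, adjusted p = 0.171, edgeR with Benjamini-Hochberg adjustment). All 3 SOX4KO lines lay above both control lines. Hsp90b1, the ER form of HSP90, was at 665 and 678 CPM in the control lines and at 982, 903 and 814 CPM in H7, M4 and H4 (log2 fold change 0.42, adjusted p = 0.28 in the same edgeR fit). Hspa5 encodes BiP, the Hsp70 chaperone that holds the sensors inactive. It was at 581 and 616 CPM in WT1 and WT3 and at 902, 734 and 672 CPM in H7, M4 and H4 (log2 fold change 0.36, adjusted p = 0.404 in the same edgeR fit). These chaperones were each highest in H7 or M4 and lowest of the SOX4KO lines in H4.

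The other members that did not overlap in the higher direction were Canx, Pdia3, Pdia6 and Manf, with log2 fold changes from 0.16 to 0.32. Canx is the membrane lectin chaperone calnexin, Pdia3 and Pdia6 form disulfide bonds, and Manf is a secreted factor. Dnajb9, an ER co-chaperone and one of the best known targets of spliced Xbp1, was at 36 and 45 CPM in WT1 and WT3 and at 38.6, 31.7 and 47.2 CPM in H7, M4 and H4. Its groups overlapped, with a log2 fold change of −0.04 (adjusted p = 0.943 in the same edgeR fit). Dnajb11, Dnajc3, Sdf2l1, Creld2 and Pdia4 also overlapped, with log2 fold changes from −0.05 to 0.33. The 8 genes with an ERSE match had log2 fold changes from −0.16 to 0.57 with a median of 0.31, and 7 of them were positive.

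In ER-associated degradation, Edem1, which extracts misfolded glycoproteins from the folding cycle, was at 65.2 and 66.3 CPM in WT1 and WT3 and at 131.8, 94.3 and 91 CPM in H7, M4 and H4. The SOX4KO lines lay above both control lines (log2 fold change 0.68 with a standard error of 0.21, adjusted p = 0.132, edgeR with Benjamini-Hochberg adjustment). Herpud1, a scaffold of the degradation complex, was at 79.5 and 77.1 CPM in the control lines and at 91.8, 100.1 and 122 CPM in H7, M4 and H4 (log2 fold change 0.42, adjusted p = 0.278). Sel1l, the adaptor of the ubiquitin ligase, was at 156 and 179 CPM in WT1 and WT3 and at 216, 145 and 213 CPM in H7, M4 and H4, with M4 below both control lines (log2 fold change 0.19, adjusted p = 0.717). Syvn1, the ligase itself, had a log2 fold change of −0.16, with all SOX4KO lines slightly below the control lines. Edem1 and Slc3a2 passed the threshold under DESeq2, with no filter beyond 1 count and without M4, at adjusted p of 0.0793, 0.0385 and 0.0989 for Edem1 and of 0.0122, 0.0017 and 0.0678 for Slc3a2, which also passed without H4 (adjusted p = 0.0596, edgeR). Calr passed under DESeq2 alone (adjusted p = 0.0301).

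Of the regulators, Ddit3, which encodes the transcription factor CHOP, was at 9.06 and 8.17 CPM in WT1 and WT3 and at 21.9, 13 and 6.23 CPM in H7, M4 and H4. The SOX4KO lines thus spread to both sides of the control lines (log2 fold change 0.67 with a standard error of 0.48, adjusted p = 0.535, edgeR with Benjamini-Hochberg adjustment). Trib3, a pseudokinase induced by ATF4 and CHOP, was at 9.84 and 14.3 CPM in the control lines and at 11.2, 15.8 and 18.4 CPM in H7, M4 and H4 (log2 fold change 0.32, adjusted p = 0.669). Atf4 was at 169 and 193 CPM in WT1 and WT3 and at 159, 249 and 177 CPM in H7, M4 and H4, and M4 alone lay above the control lines (log2 fold change 0.11, adjusted p = 0.857). Atf6 had a log2 fold change of 0.01. Ppp1r15a, the phosphatase subunit that reverses eIF2 alpha phosphorylation, had one of 0.21 with groups that did not overlap. Xbp1 was the only one called of the 6 regulators tested, beside 6.27% of all genes tested, and Atf3 was not tested. With so few genes, the absence of another call says little.

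The amino acid members were split in direction, with 4 positive and 5 negative log2 fold changes and a median of −0.03. The heavy chain Slc3a2 and the light chain Slc7a5 form one transporter of large neutral amino acids, and their values lay on opposite sides. Slc3a2 was at 307 and 304 CPM in WT1 and WT3 and at 496, 799.8 and 459.8 CPM in H7, M4 and H4, all above both control lines (log2 fold change 0.94 with a standard error of 0.27, adjusted p = 0.108, edgeR with Benjamini-Hochberg adjustment). Slc7a5 was at 98.6 and 92.4 CPM in the control lines and at 45.4, 84.9 and 69 CPM in H7, M4 and H4, all below both control lines (log2 fold change −0.53 with a standard error of 0.25, adjusted p = 0.322). Neither change was called.

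Asns, which makes asparagine, was at 28.2 and 23.5 CPM in WT1 and WT3 and at 17.5, 26.6 and 23.9 CPM in H7, M4 and H4 (log2 fold change −0.19, adjusted p = 0.749 in the edgeR fit). Its groups overlapped. Phgdh, the first enzyme of serine synthesis, was at 38.3 and 51.6 CPM in the control lines and at 43.1, 63 and 19.4 CPM in H7, M4 and H4, the widest spread between SOX4KO lines among the enzymes (log2 fold change −0.12 with a standard error of 0.41, adjusted p = 0.916). Psat1, the next enzyme of that pathway, had a log2 fold change of −0.32 with all SOX4KO lines below the control lines. Shmt2, which passes serine carbon into the one-carbon pool of Mthfd2, had one of −0.03. Sesn2 and Chac1, stress-induced ATF4 targets, had values of 0.05 and 0.29 with overlapping groups.

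The rest of the pathway was read in bulk from lists chosen by textbook role, with earlier results of these data known. Counts over these lists are therefore descriptions, and some single-cell levels of their genes are given further on. Of 13 sensors, kinases and related factors, 11 had a negative log2 fold change, 1 was called lower and 0 higher in the edgeR fit (1 and 1 when p under 0.05 was left unadjusted, and 1 lower and 0 higher with DESeq2), beside the 4.1% called higher and 2.17% called lower among all 11682 genes. The called gene was Creb3l1, an ER-bound relative of ATF6, at 90.1 and 112.7 CPM in WT1 and WT3 and at 41.2, 36.4 and 57.2 CPM in H7, M4 and H4 (log2 fold change −1.17, adjusted p = 0.0376, edgeR with Benjamini-Hochberg adjustment). Of 34 other ER folding and degradation genes tested, 26 were positive, with a median of 0.10, and 1 was called higher, also beside 4.1% of all genes. This was Fkbp14, a prolyl isomerase of the ER that acts on collagens, at 29 and 31.7 CPM in the control lines and at 95.2, 59.8 and 70.7 CPM in H7, M4 and H4 (log2 fold change 1.31, adjusted p = 0.0308).

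Of 35 other amino acid response genes tested, 27 were positive, with a median of 0.17, and 5 were called higher and 0 lower in the edgeR fit (2 were lower at an unadjusted p under 0.05, and 0 were called lower by DESeq2), again beside 4.1% and 2.17%. Slc1a4 and Slc1a5, transporters of small neutral amino acids, had log2 fold changes of 1.31 and 1.77 (adjusted p = 0.0275 and 0.0692 in the edgeR fit). Slc1a5 was at 5.18 and 4.18 CPM in the control lines and at 20.9, 18.4 and 8.86 CPM in H7, M4 and H4. Aldh18a1, an enzyme of proline synthesis, Ddit4, an inhibitor of mTORC1 signalling, and Jdp2, a bZIP repressor, had log2 fold changes of 0.76, 0.69 and 0.72 (adjusted p = 0.0577, 0.0765 and 0.0922). Of the heat shock and immediate early genes, which respond to other stress and to handling, 8 of 17 were positive and Hspb1 alone was called, at a log2 fold change of 1.30 (adjusted p = 0.0577), 1 of 17 beside 4.1% of all genes. Each of these calls of a list gene, Creb3l1 and Fkbp14 included, was lost when either control line was left out. Such a fit holds 1 control line, and the calls over all genes fell as well.

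The single-cell libraries answer the same question with 1 control library, so no test was made and each level carries an exact 95% Poisson interval that covers counting error only. Over all cells, Dnajb9 was higher and Phgdh lower than in the control library by at least 1.5-fold in both SOX4KO libraries, and no other member was. Of 6303 genes whose average reached 20 CPM, 5.39% were past this fold in the higher and 2.65% in the lower direction, 8.04% together, beside 1 and 1 of the 29 members at that level. The 5 members below it were Atf6, Ddit3, Slc7a11, Chac1 and Sesn2. The median log2 ratio of the 29 members was 0.10 in GR18 and 0.14 in GR19, beside 0.01 and −0.05 over all 6303 genes.

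Dnajb9 was at 15.3 CPM (12.7 to 18.3) in GR17, 25.8 CPM (22.4 to 29.6) in GR18 and 35.8 CPM (31.8 to 40.1) in GR19, so the intervals of the SOX4KO libraries lay above that of the control library, by 1.65-fold and 2.26-fold after adding 1 CPM. Phgdh was at 109 CPM (102 to 117) in GR17, 58.7 CPM (53.5 to 64.2) in GR18 and 42.3 CPM (38 to 47) in GR19, 1.85-fold and 2.54-fold lower. In the bulk lines the groups of both genes overlapped.

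Xbp1 was higher in the SOX4KO libraries, on the opposite side from bulk. It was at 354 CPM (341 to 367) in GR17, 540.2 CPM (524 to 557) in GR18 and 447 CPM (433 to 462) in GR19, log2 ratios of 0.61 and 0.34. Summed luminal markers were also higher in both, at 1331 CPM in GR17, 1726 in GR18 and 3464 in GR19. Csn3 alone made up 101, 391 and 1754 CPM of these sums. The luminal sum was highest in GR19, whereas Xbp1 was highest in GR18. Of the 9 luminal markers with at least 20 CPM, 7 were above GR17 in both SOX4KO libraries. Foxa1 was below it in both, at 196, 77.2 and 86.4 CPM. Summed basal markers were at 5424, 5681 and 3442 CPM. Their part in the Xbp1 levels was not tested. The difference between the bulk and the single-cell comparisons was itself not tested, since the 2 kinds of library were counted differently. Manf was also on opposite sides, at a bulk log2 fold change of 0.32 and at 330.2 CPM in GR17, 277 in GR18 and 262 in GR19.

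**Figure D2:**
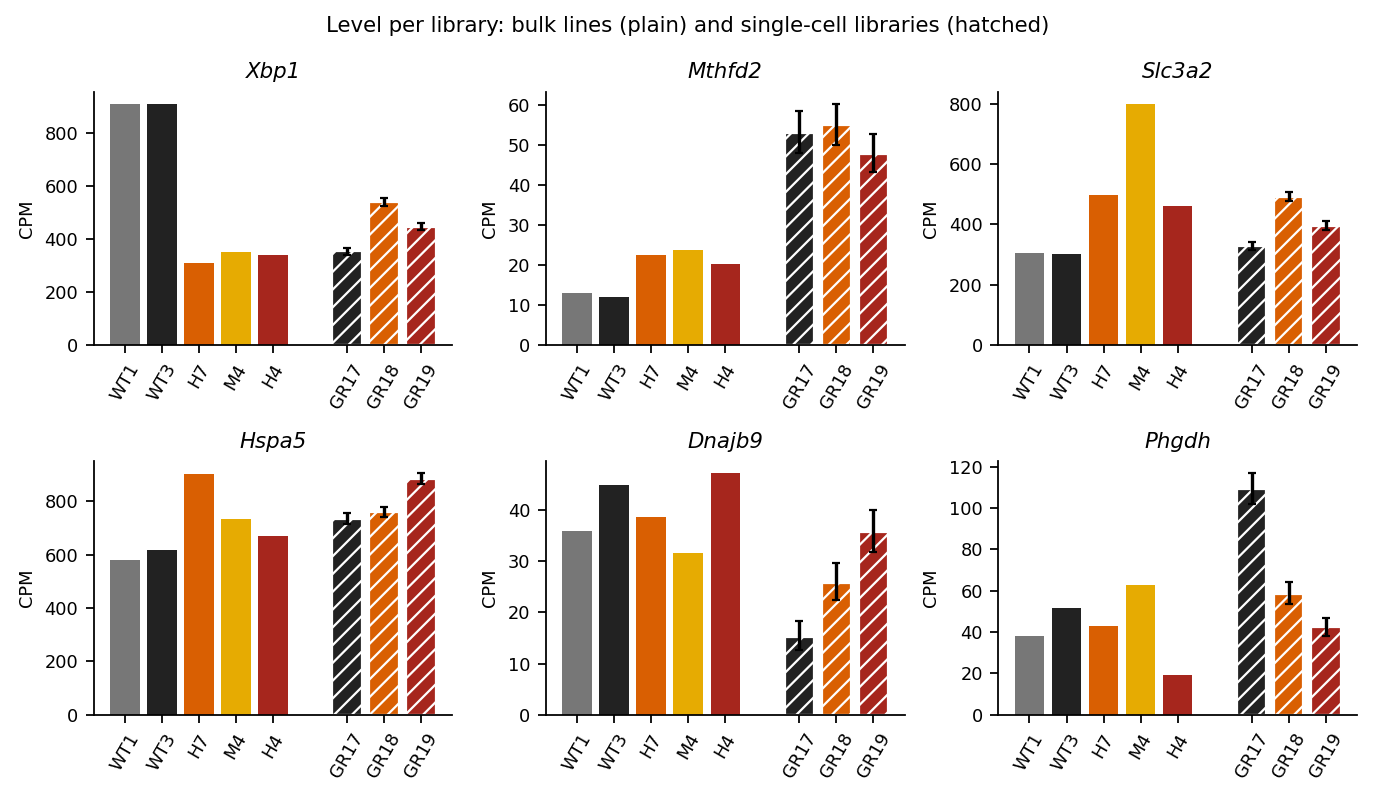
CPM of 6 members in each bulk line (plain bars) and each single-cell library (hatched bars, with 95% Poisson intervals). Xbp1 is lower in the 3 SOX4KO lines of the bulk set yet higher in GR18 and GR19 than in GR17, and Slc3a2 is higher in both sets.

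By role, the 4 degradation members were above the control library in both SOX4KO libraries, with median log2 ratios of 0.27 and 0.33, beside 38.8% of the 6303 genes that lay above it in both and 42.5% that lay below. Herpud1 was at 40.3 CPM in GR17, 52.8 in GR18 and 56.5 in GR19, and Sel1l at 45.6, 59.1 and 60.5 CPM, with intervals apart from the control library in both. Edem1 was at 68.6, 77.5 and 77.5 CPM, with overlapping intervals. The 13 folding members had medians of 0.05 and −0.09, with 5 above and 5 below the control library in both, beside the same 38.8% and 42.5%. Hspa5 was at 735.5 CPM in GR17, 759.9 in GR18 and 884 in GR19. Hsp90b1 was at 521 CPM in GR17, 600.4 in GR18 and 674 in GR19, one of the genes that lay above control in bulk as well. Calr was at 942 CPM in GR17 and lay between GR18 at 1013 and GR19 at 852.

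Of the regulators, Trib3 was at 18.5 CPM in GR17, 27.7 in GR18 and 26.8 in GR19, with intervals apart. Atf4 was at 361 CPM in GR17, between 399 in GR18 and 342 in GR19. Ddit3 was rare, with 46, 81 and 60 UMIs in all cells of GR17, GR18 and GR19, or 5.96, 10.1 and 7.23 CPM, and the intervals of GR17 and GR19 overlapped. Atf3 was at 29.3, 20.6 and 34.1 CPM. Ppp1r15a was at 86.1, 94.5 and 94.7 CPM, with overlapping intervals. Of the 13 sensors, kinases and related factors, 11 had a negative log2 fold change in bulk. In single cells 8 of them reached 20 CPM on average, of which 6 lay above GR17 in both SOX4KO libraries and 2 below. Over all 6303 genes these shares were 38.8% and 42.5%. Creb3l1, called lower in bulk, was under that level, at 8.69 CPM in GR17, 17.2 in GR18 and 10.8 in GR19. Its intervals in GR17 and GR19 overlapped.

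In the amino acid group, Asns was at 73.4 CPM (67.5 to 79.7) in GR17, 112.7 CPM (105.5 to 120.3) in GR18 and 110.3 CPM (103 to 118) in GR19, so it was 1.53-fold and 1.496-fold higher and GR19 stopped just short of the fold used. Slc3a2 was at 328 CPM in GR17, 492 in GR18 and 397 in GR19, with intervals apart. Slc7a5 was at 64.6, 71 and 63.2 CPM and Mthfd2, called in bulk, at 52.9, 54.8 and 47.7 CPM, with overlapping intervals in both genes. Shmt2 was at 342 CPM in GR17, 293 in GR18 and 268 in GR19, below control in both. Chac1 was at 11.4 CPM in GR17, 17.1 in GR18 and 15.2 in GR19. Of the other amino acid response genes called higher in bulk, Slc1a5 lay on the opposite side in single cells. It was at 45 CPM in GR17, 38.5 in GR18 and 29.9 in GR19, with overlapping intervals in GR17 and GR18. Slc1a4, Aldh18a1, Ddit4 and Jdp2 lay above GR17 in both SOX4KO libraries. Of the 30 genes of that list with at least 20 CPM on average, 18 lay above GR17 in both and 9 below.

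Across the 28 members measured in both kinds of library, 4 lay above control in every SOX4KO sample of both, namely Hsp90b1, Pdia6, Herpud1 and Slc3a2. For single cells this means that the counting intervals were apart. Of 5923 genes measured in both kinds, 6.06% lay above control in this way, 6.06% lay below it and 2.87% were on opposite sides. Among the 28 members 0 lay below in both, and Xbp1 and Manf were the 2 on opposite sides. The remaining 22 were apart in at most one kind of library.

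**Figure D3:**
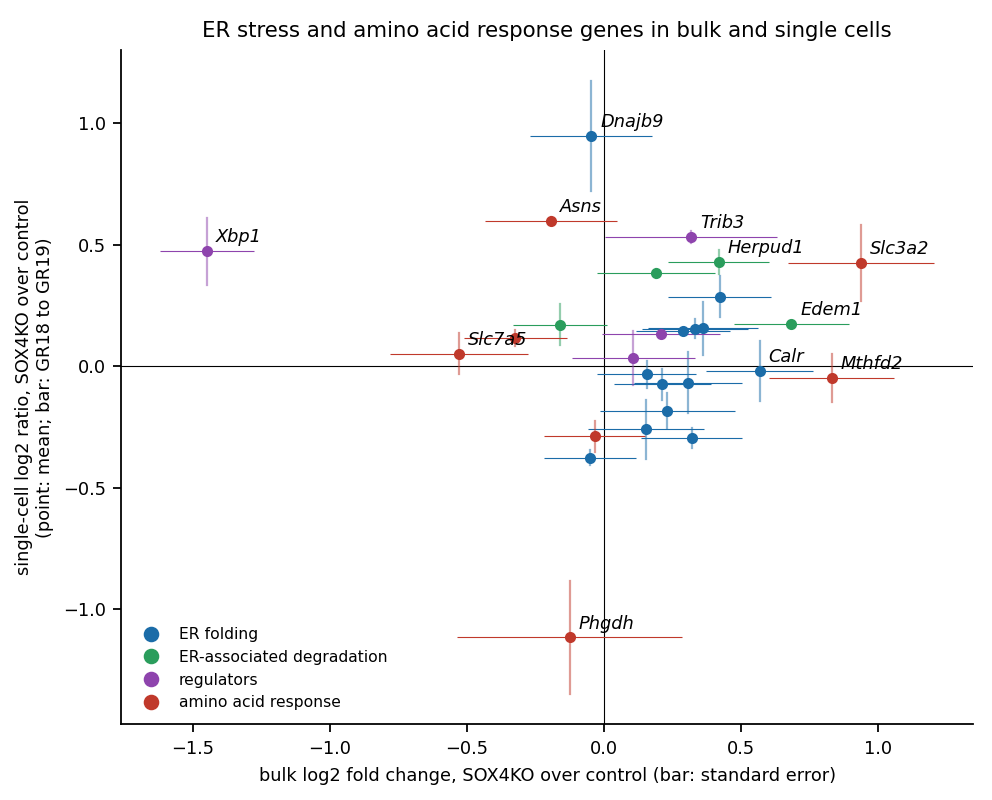
Bulk log2 fold change with its standard error against the single-cell log2 ratio of SOX4KO over control for the 28 members measured in both, the vertical bar running from GR18 to GR19. Xbp1 stands at the left above 0 and Phgdh at the bottom, while Slc3a2 lies at the right above 0.

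The share of a cell's UMIs that fell on the members was compared between cells and libraries. The 13 folding members took a median of 0.349% of a cell's UMIs in GR17, 0.364% in GR18 and 0.357% in GR19, with quartiles from 0.290% to 0.425%, 0.292% to 0.443% and 0.276% to 0.441%. The 10 amino acid members took a median of 0.138%, 0.149% and 0.132%. The differences between the library medians were small beside the spread between cells. At the top, 5% of cells had more than 0.236% of UMIs on amino acid members in GR17, 0.273% in GR18 and 0.257% in GR19. The 7 regulators took medians of 0.0756%, 0.0912% and 0.0857%, of which Xbp1 and Atf4 made up most. The folding and amino acid shares rose together only weakly across cells of a library, with Spearman's rho of 0.26 over 369 cells, 0.27 over 369 cells and 0.22 over 362 cells. The points share the library, its depth and the cell's total. Counting error enters each share, and its part in the spread between cells and in rho was not tested.

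**Figure D4:**
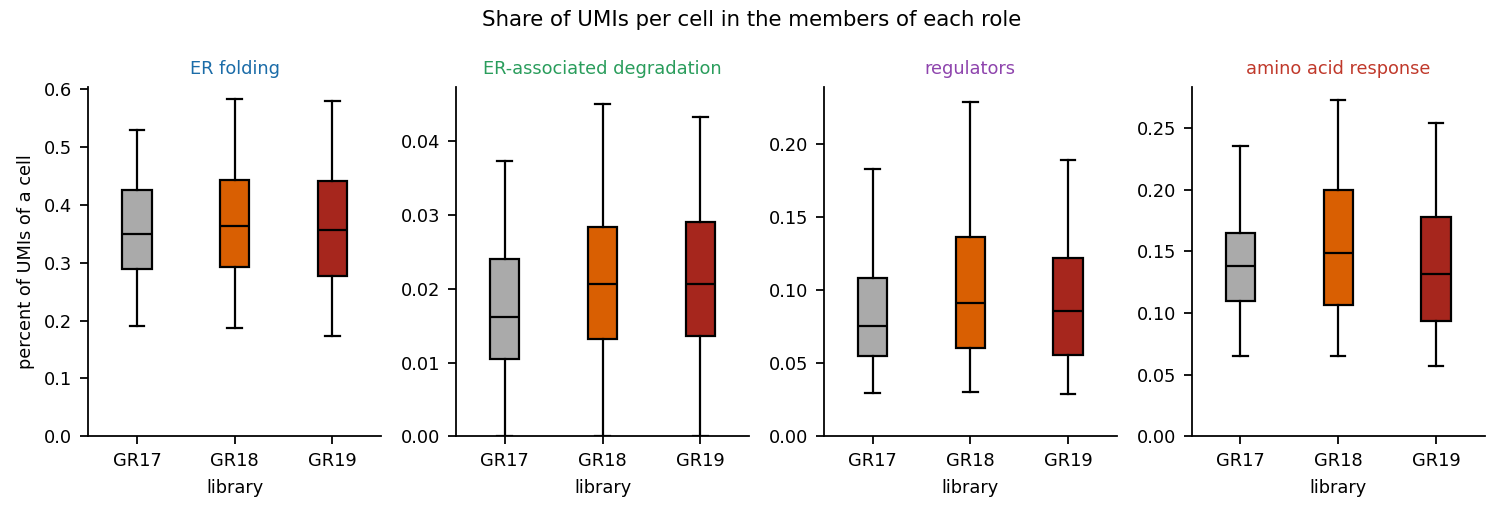
Percent of the UMIs of a cell on the members of each role, by library (box: quartiles and median over 369, 369 and 362 cells; whiskers: 5th to 95th percentile). The boxes of the 3 libraries overlap broadly in every role.

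Cells were grouped into 6 clusters, A to F, with the 34 genes left out of the variable genes that define them, and the levels are descriptions. Cluster A held 330 of its 346 cells from GR17 and may be that library, B held 210 cells, C 161, D 138, E 134 and F 111, mostly or only of SOX4KO libraries. Luminal markers summed to 3976 CPM in D and 5403 CPM in E and to 1206 to 1400 CPM in the other clusters, whereas basal markers were at 5362 CPM or more outside D and E and at 1418 to 1452 CPM within them. The proliferation gene Top2a was lowest in E and B, at 19 and 32.4 CPM, and at 266 CPM or more elsewhere.

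Xbp1 followed the luminal clusters, at 926.6 CPM in E and 745 CPM in D, and at 424 in B, 313.5 in A, 246 in F and 199 in C. The highest cluster was 4.65 times the lowest, beside a median of 1.65 over 6337 genes at this level. Within D, Xbp1 was at 751 CPM in 16 cells of GR17, 930.5 CPM in 45 of GR18 and 627 CPM in 77 of GR19. In E it was at 913 CPM in 14 cells of GR17, 1115 CPM in 63 of GR18 and 759.5 CPM in 57 of GR19. In D and E the control library lay between the SOX4KO libraries, so the side seen over all cells was not seen in either cluster. In A, Xbp1 was at 312 CPM (299 to 325) in 330 cells of GR17 and at 461 CPM (361 to 580) in 11 of GR18. There GR18 lay above GR17 with intervals apart, and GR19 had only 5 cells. Across cells, the Xbp1 share had a Spearman's rho with the luminal marker share of 0.47 in GR17, 0.56 in GR18 and 0.42 in GR19, and with the basal marker share of −0.57, −0.46 and −0.46. With the folding share it had one of −0.04, −0.13 and 0.01. Atf3 had the same order at its top, at 70.5 CPM in E and 43.4 in D and from 10.5 to 22.7 CPM elsewhere, and so had Ppp1r15a, at 153 CPM in E and 105 in D.

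**Figure D5:**
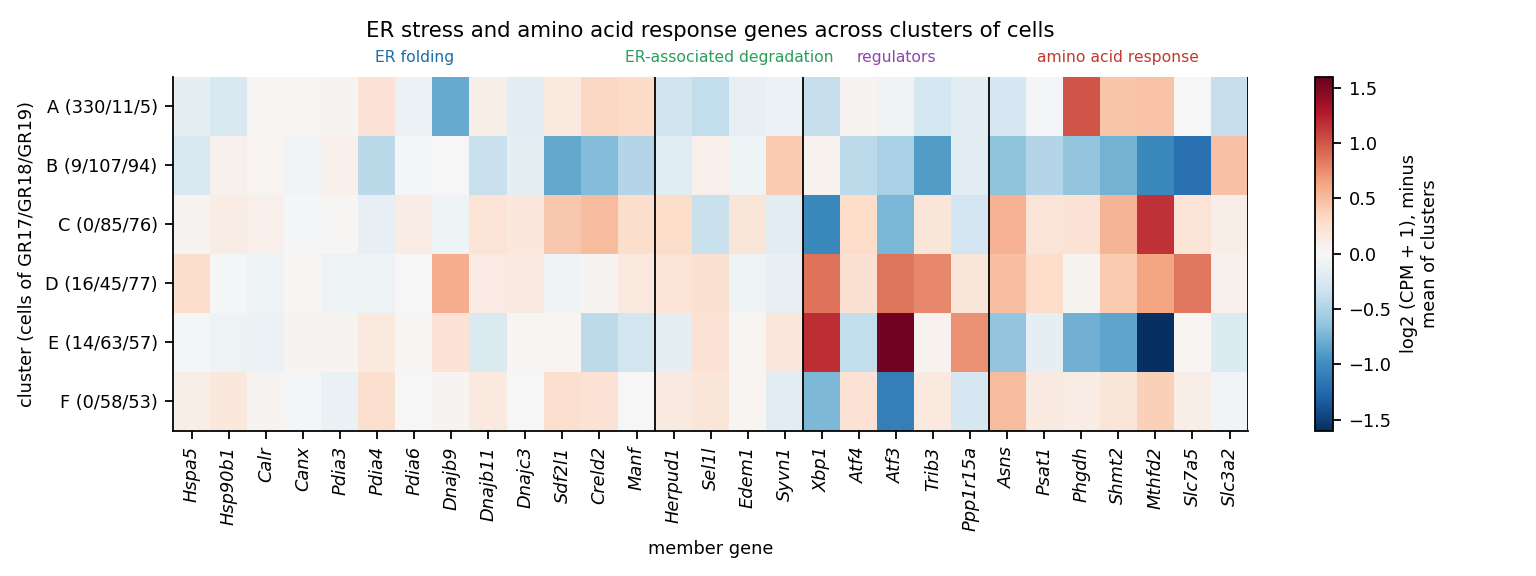
Log2 of CPM plus 1 of each member in each cluster, minus the mean of the clusters (colour), for the 29 members with at least 20 CPM, rows labelled with the number of cells from GR17, GR18 and GR19. Xbp1 and Atf3 are high in D and E, and the amino acid enzymes are low in B and E.

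The amino acid members varied with the other axis. They summed to 1808 CPM in D, 1807 in C, 1590.2 in F and 1498 in A, and to 1241.5 in B and 1137 in E, the clusters with little Top2a. Mthfd2 was at 90.2 CPM in C, 62.5 in D, 55.3 in A and 52.5 in F, and at 19.1 in B and 12.5 in E, a 7.20-fold range and the widest of the 34 genes. Shmt2 was at 155 CPM in B and 146 in E and at 301 CPM or more elsewhere, and Asns at 60.3 and 61.2 CPM against 78.3 CPM or more. Slc3a2 did not follow this axis, being highest in B at 568 CPM but at 352 CPM in E, within the 317 to 443 CPM of the other clusters. Its partner Slc7a5 was lowest in B at 25.9 CPM and highest in D at 109.8 CPM. Atf4 itself was at 265 CPM in B and 271 in E and at 366 to 437 CPM elsewhere.

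The folding members were the most even, summing to 3518 CPM in B and 4006 in C at the ends. The lectin chaperones Calr and Canx varied 1.13-fold and 1.06-fold over the clusters. Creld2, Sdf2l1 and Manf, small soluble ER proteins, were lowest in B, at 28.1, 11.9 and 196 CPM, and Creld2 and Sdf2l1 highest in C, at 65.7 and 29.7 CPM.

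Dnajb9 was at 14.8 CPM in the GR17 cells of A, and from 17.8 to 46.5 CPM in each SOX4KO library of B to F. In D it was at 17.9 CPM in GR17 (interval 7.74 to 35.3), 37.9 in GR18 and 46.5 in GR19, the last with an interval above that of GR17. In E it was at 17.5 CPM in GR17 (interval 4.76 to 44.7), 30.5 in GR18 and 34.8 in GR19, both within the interval of GR17. Phgdh was at 114 CPM in the GR17 cells of A and from 20.7 to 77.1 CPM in each SOX4KO library of B to F. In E it was at 69.9 CPM in GR17 (interval 39.9 to 113.5), 37.9 in GR18 and 20.7 in GR19, the last with an interval below that of GR17. In D it was at 71.7 CPM in GR17 (interval 49.1 to 101), 67.9 in GR18 and 47.9 in GR19, with intervals that overlapped that of GR17. These small groups of control cells rest on 4 to 32 UMIs of either gene.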

How the data were processed

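The members, gene lists and roles were chosen with earlier results of these data known. For bulk libraries the authors deposited raw read counts per gene from htseq-count, and for single cells UMI counts per gene and well, both without normalization. The submitters' processing notes name STAR 2.4.2a and builds mm9 and NCBIM37, while symbols, exon lengths and promoters here come from GRCm38. Libraries came from a directional kit, and whether counting used strand is not given in the sources used here. Rows that name no gene held 71.6% to 83.9% of bulk counts and were left out. For bulk counts the quasi-likelihood test of edgeR 4.0.16 (R 4.3.3) was used after filterByExpr and TMM, two-sided, with Benjamini-Hochberg adjustment and calls at an adjusted p under 0.1, with DESeq2 1.42.0 as an alternative. CPM use TMM factors. Common dispersion was 0.0429. Where nothing says that lines were cultured separately in time, p-values measure the spread between these libraries. Wells under 1000 UMIs (15, 15 and 22), ERCC spikes and eGFP were left out, UMIs were summed per library, and log2 ratios use 1 CPM added. No doublet caller was run, and wells over 2 times the median were left out in an alternative. Clusters used Seurat 5.3.0 (LogNormalize, 2000 variable genes without the members, 10 principal components, resolution 0.5). Named were members called in bulk or past 1.5-fold in both SOX4KO plates, the 3 of largest absolute log2 fold change per role, Hspa5, Ddit3, Atf4, Xbp1 and Asns, and called list genes, with others summarised. Steps were tested on simulated data.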

Additional observations from a re-analysis of the deposited data

Results flagged for a closer look

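Xbp1 was flagged because every SOX4KO sample lay on one side of control in bulk and on the other side in single cells, with a bulk log2 fold change of −1.45 and a mean single-cell log2 ratio of 0.47. Manf was flagged for the same reason, with a bulk log2 fold change of 0.32 and a mean single-cell log2 ratio of −0.29. Neither difference was tested.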

How the results depend on the processing

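No paired analysis was possible because the lines are separate clones whose labels carry no shared replicate numbers. With 2 control lines, 1 control library and 1 to 9 reads per line for the rarest members, the data limit what can be called. Members called higher (1 in the report) numbered 3 under DESeq2, 3 with no filter beyond 1 count, 0 with at least 10 counts in each group mean, 0 at an adjusted p under 0.05 and 0 to 2 when a line was left out, and members called lower (1) numbered 0 to 1 when a line was left out, 0 being the value without WT3. Pathway and heat shock genes called higher (7) numbered 11 under DESeq2, 13 with no filter, 2 at an adjusted p under 0.05 and 0 to 7 when a line was left out, with 0 without WT1 and 0 without WT3, and those called lower (1) numbered 2 under DESeq2, 5 with no filter and 0 to 2 when a line was left out. The bulk median of the folding members (0.29) ranged from 0.20 to 0.30 when a line was left out. Reversed signs were seen for Dnajb9 (0.13 without WT3, 0.076 without M4, range −0.20 to 0.13), Phgdh (0.11 without WT3, 0.23 without H4, range −0.54 to 0.23) and Atf4 (−0.11 without M4, range −0.11 to 0.23), none of them called. Mthfd2 missed the threshold under DESeq2 (adjusted p = 0.108) and with at least 10 counts (adjusted p = 0.108, edgeR).

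Members past the fold in the higher direction in single cells (1) numbered 0 with a pseudocount of 10 CPM, 0 with at least 50 CPM, 0 at 2-fold, 2 with totals without mitochondrial genes and Rn45s, and 1 to 3 when a library was left out (3 without GR19), and in the lower direction (1) 0 at 2-fold. The median log2 ratio of all members (0.12) was 0.085 with at least 50 CPM and 0.16 with those smaller totals, and that of the regulators (0.14) was 0.19 with them. When a library was left out the median ranged from 0.27 to 0.33 for degradation members, from 0.14 to 0.21 for regulators and from −0.031 to 0.084 for amino acid members. The difference of median folding shares, 0.0111 percentage points, became 0.0279 with smaller totals. The ratio of highest to lowest cluster was 1.39 (resolution 0.3) and 1.43 (20 principal components) for amino acid members, against 1.59, and 3.79 (resolution 0.3) for Xbp1, against 4.65. Where no construction of an alternative shows it, the cause was not tested.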
